A study of Mus musculus with 2 samples.

Results

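The genes that encode chemokine ligands were examined in medullary thymic epithelial cells of the mouse. They were taken as every counted RefSeq transcript with the symbol of a CC or CXC chemokine ligand, of Xcl1 or Cx3cl1, or of Pf4 and Ppbp, which are CXC ligands under older names. Each gene was represented by its transcript with the highest read total, which gave 42 chemokine ligand genes of 23571 genes in all. Of these, 39 had at least 50 reads over both libraries and could be compared. The other 3 were Ccl24, with 2 reads in the control library and 6 in the knockdown library, and Ccl26 and Ccl28, with 0 reads in both.

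Chemokines are small secreted or membrane-bound proteins that steer cells through G protein-coupled receptors. CC and CXC ligands are named for the spacing of their first cysteines, and most receptors read several ligands. Thymic stroma uses them to bring progenitors into the organ, to hold immature thymocytes in the cortex, to draw positively selected thymocytes into the medulla, and to place dendritic cells there. Atypical receptors bind chemokines without the usual signalling and remove or transport them.

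Both libraries came from the thymus of 1 lentigenic mouse grown from a B6 oocyte. It carried 3 small hairpin RNAs against Clp1, a component of the 3' end processing machinery, placed under the doxycycline-inducible promoter TRE3G and ahead of a green fluorescent reporter. It also carried the TetOn3G transactivator under the ubiquitous EF1 promoter, and from 3 weeks of age it ate pellets with doxycycline (2 g per kg) over 2 weeks. The medullary epithelial cells called mTEChi, sorted for high MHC class II, low to intermediate Ly51 and no CD45, were divided by fluorescence. The Clp1 knockdown (Clp1 KD) library was made from GFP-positive cells and the Ctr library from GFP-negative cells, so animal, age and doxycycline were shared and the groups differed by the sort on the reporter. Of the pups made, this 1 animal supplied both libraries.

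There was 1 library per group, so no difference has a replicate check and no p-value was computed. Counts summed over all 30794 transcript entries came to 28464803 (Ctr) and 37524730 (Clp1 KD), and the same read can be counted in more than 1 entry. With 1 transcript per gene the sums were 21025250 and 27371050. Clp1 had 1573 reads in Ctr and 812 in Clp1 KD, which is 39.7% of the Ctr level after scaling. Ratios are Clp1 KD over Ctr on the log2 scale after division by size factors, with exact (Clopper-Pearson) 95% intervals. Intervals cover counting error only and hold no spread between libraries. They treat reads as independent, but without molecular identifiers several PCR reads can stem from 1 molecule. The intervals can thus be too narrow even for counting error. To be called higher or lower, a gene needed 50 reads or more in both libraries together, a ratio of at least 2-fold and an interval that left out a log2 ratio of 0. By this rule 19.1% of 16831 genes were called higher in Clp1 KD and 18.6% lower. The defining markers of mTEChi were present in both libraries. Aire, the transcriptional regulator that marks these cells, had 7462 reads in Ctr and 8264 in Clp1 KD. The summed scaled reads of 12 mature mTEC markers were 715623 and 789036, mostly from H2-Aa, H2-Ab1 and Cd74. Of the 12 markers, Cd40 was higher (1.26), Cd86 was lower (-1.01) and 10 were neither. Markers of other cell types were present as well and were lower in Clp1 KD for most lists. In bulk RNA, fewer cells of a type and less RNA per cell cannot be told apart.

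The ligands were spread to both sides. In Clp1 KD, 12 of the 39 were higher (30.8%, against 19.1% of all genes) and 11 were lower (28.2%, against 18.6%), while 16 were neither. The 12 include 4 Ccl21 copies that share reads. Without these, 8 of 35 were higher (22.9%), which is near the share of all genes, and 11 of 35 were lower (31.4%). The median log2 ratio of the 39 was -0.43, beside 0.0037 over all genes, with 17 ligands above 0 and 22 below. The quartiles lay at -1.29 and 1.10 for the ligands and at -0.70 and 0.71 for all genes. By these intervals counting error was small beside most ratios. The interval left out 0 for 37 of the 39, which depends on read number, and the share over all genes was not computed. CC ligands had a median of -0.48 over 22 genes, and CXC ligands, with Pf4 and Ppbp, 0.012 over 15.

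**Figure D1:**
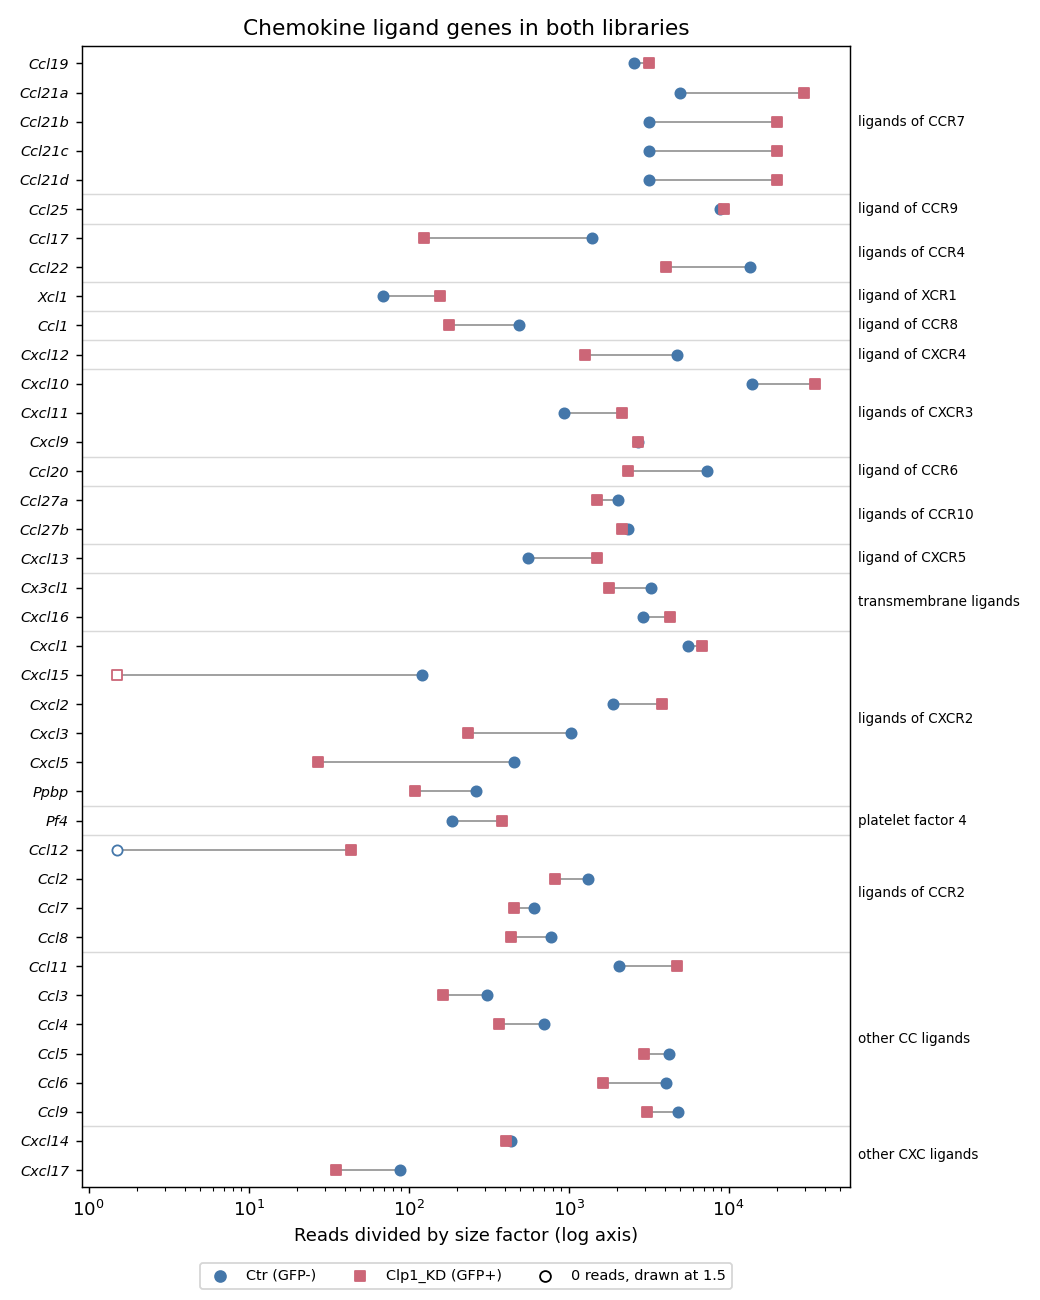
Reads divided by the size factor (log axis) of the 39 compared ligand genes, grouped by the receptor they bind or as other ligands, with circles for Ctr and squares for Clp1 KD. Open symbols mark 0 reads, for Ccl12 in Ctr and Cxcl15 in Clp1 KD. The Ccl21 copies lie far to the right in Clp1 KD, whereas both CCR4 ligands lie to the left.

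**Figure D2:**
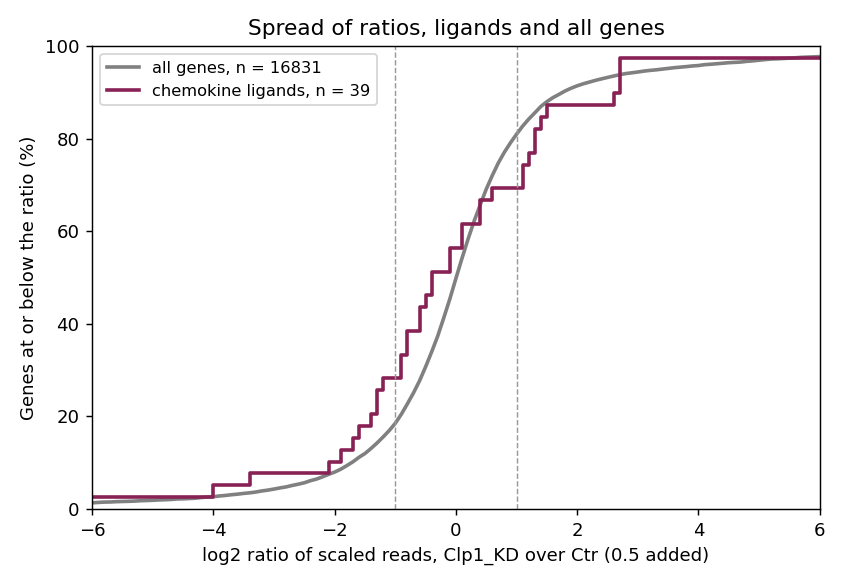
Percentage of genes at or below each log2 ratio of Clp1 KD over Ctr, for 16831 genes and for the 39 ligands, with dashed lines at 2-fold. The curve of the ligands is flatter than that of all genes, with quartiles at -1.29 and 1.10.

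To give the regulatory sequence behind the inducible ligands, the RefSeq promoters (GRCm38.p6, 250 bases before to 50 after the start site) were searched on both strands for the kappa-B consensus of NF-kappa-B factors and for a pair of GAAA runs spaced by 2 bases, the core of the interferon-stimulated response element (ISRE). A promoter was held for 30 of the 42 genes. The kappa-B consensus stood in 8 of these and in 8.46% of 32851 promoters of all genes. The ISRE core stood in 3 (Ccl19, Cxcl10 and Cxcl14) and in 3.44% of all promoters. A ligand gene was counted if any of its promoters matched. The percentages are of single promoters, so the counts and percentages are not the same measure. The windows below are written 5′ to 3′ along the gene, and capitals mark the match. Cxcl1, Cxcl2 and Cxcl3 are shown because they are paralogous neighbours with the same match, Ccl20 because it was among the abundant ligands that were lower, and Cxcl10 because it had the most reads of any single entry and held both motifs.
Cxcl1 (chr5:90891165-90891192): ctgtactccGGGAATTTCCctggcccgg
Cxcl2 (chr5:90903793-90903820): ctgagctcaGGGAATTTCCctggtcccc
Cxcl3 (chr5:90786019-90786046): agctgcgggGGGAATTTCCccagcccgg
Ccl20 (chr1:83116677-83116704): atcaatgggGGAAAACCCCgggtgagaa
Cxcl10, kappa-B (chr5:92349030-92349057): gaggggagaGGGAAATTCCaagttcatg
Cxcl10, ISRE core (chr5:92349084-92349111): cacgctttgGAAAGTGAAActtacctca
The match in Ccl20 reads on the opposite strand. The kappa-B consensus was found in a promoter of 2 of 9 higher ligands (Cxcl10, Cxcl2) and of 3 of 9 lower ligands (Ccl1, Ccl20, Cxcl3). It was also found in a promoter of 3 of 11 ligands that were neither (Ccl27a, Ccl9, Cxcl1). A match describes the letters and is not a site of binding.

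The largest amount of chemokine RNA that differed between the libraries came from ligands of CCR7, the receptor that brings selected thymocytes into the medulla. Ccl21a, the form of CCL21 made in thymus and lymph node stroma, had 4325 reads in Ctr and 33628 in Clp1 KD, which is 5.98-fold higher. Ccl21b, Ccl21c and Ccl21d each had 2787 and 22916 reads (log2 ratio 2.66, 2.60 to 2.72). These are near-identical copies, their counts were identical, and no source used here says how reads were assigned among copies. The 4 entries are therefore read as a single signal. The copies with a position in the mm9 annotation lay on chromosome 4, Ccl21b at 41774204 to 41775337, Ccl21c at 42391951 to 42393082 and Ccl21a at 42786392 to 42787525. Ccl19, the other CCR7 ligand, lies beside Ccl21a at 42768057 to 42770109, and it did not share the difference. It had 2231 and 3649 reads, with a log2 ratio of 0.33 (0.25 to 0.41). Of the immature mTEC markers, 2 of 6 were higher in Clp1 KD, namely the keratins Krt5 (8922 and 25255 reads) and Krt14 (8918 and 24801). The other 4 were neither, with Pdpn (0.71) and Itga6 (0.86) above 0 and Itgb4 (-0.36) and Ly6a (-0.42) below. The summed scaled reads of that list went from 42035 to 62986, a rise that came mainly from the keratins. The part of these markers in the Ccl21 difference was not tested.

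Shares of reads were taken with 1 transcript per ligand gene over the sum of all transcript entries. This makes them lower than over 1 transcript per gene. The ligands took 0.343% of that sum in Ctr (exact 95% interval 0.341 to 0.345) and 0.571% in Clp1 KD (0.568 to 0.573), a ratio of 1.66. With identical entries counted once the ratio was 1.39. Without the Ccl21 copies the shares were 0.298% in both libraries, and without Cxcl10 as well they were 0.255% and 0.193%. The higher share in Clp1 KD was thus held by the Ccl21 entries, and Cxcl10 balanced the ligands that were lower.

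Ligands of CCR4, which medullary stroma and dendritic cells use to attract thymocytes just after positive selection, moved in the opposite direction to Ccl21. Ccl22 had 12008 reads in Ctr and 4624 in Clp1 KD (-1.76, -1.80 to -1.71). Ccl17 had 1233 and 142 reads, which is 11.3-fold lower. The genes lie close together on chromosome 8 (mm9, Ccl22 at 97269490 to 97275599 and Ccl17 at 97334353 to 97335935), with Cx3cl1 between them. Of 11 markers of dendritic cells and macrophages, 5 were lower in Clp1 KD and 2 higher. None of the 11 was at 0, and their summed scaled reads were 13043 and 16016. The higher sum came from Lyz2, which had 8041 and 15840 reads (0.60) and was not called. The markers moved to both sides. Itgax, the integrin CD11c of dendritic cells, had 321 and 39 reads, and Flt3, Adgre1, Cd209a and Batf3 were also lower. The macrophage receptor Mertk had 7 and 89 reads, and Xcr1 was also higher. The part of dendritic cells in the CCR4 ligands was not tested.

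Ccl25, the ligand of CCR9 that acts on thymic progenitors, was among the most abundant ligands and differed little, with 7693 and 10607 reads (0.085, 0.042 to 0.13). Per length it had 255 and 267 RPKM, which is reads scaled by transcript length and by the summed counts of all transcript entries. Cxcl12, the CXCR4 ligand that retains immature thymocytes in the cortex, was 3.80-fold lower, with 4193 and 1435 reads in its alpha transcript NM_021704 (mm9 chromosome 6, 117118553 to 117131385). Its 3 transcripts differ in their last exons. The last exon of the alpha form, counted up to its proximal poly(A) site, had 3778 and 1323 reads (-1.89, -1.98 to -1.80), that of the beta form NM_013655 2252 and 207 (-3.82, -4.03 to -3.62), and that of the gamma form NM_001012477 3339 and 303 (-3.84, -4.01 to -3.67). The beta and gamma forms had the same 473 and 121 reads in their earlier exons and can share reads. Their last exons were lower by more than that of the alpha form, with intervals that did not meet. All 9 endothelial markers were lower in Clp1 KD, and their summed scaled reads went from 35991 to 1709 with no marker at 0. For fibroblasts and mural cells 6 of 9 markers were lower, with sums of 19947 and 10563, and for cortical thymic epithelium (cTEC) 5 of 9, with sums of 51346 and 39267, again with none at 0. Endothelium, fibroblasts and cTEC all express Cxcl12, and their part in its lower level was not tested.

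Xcl1, an Aire-dependent chemokine of mTEC that places XCR1-positive dendritic cells in the medulla, was scarce, with 61 reads in Ctr and 178 in Clp1 KD (1.17, 0.74 to 1.61). Its interval reached below 2-fold. Its receptor gene Xcr1 was also higher, with 38 and 226 reads (2.19, 1.69 to 2.73). Ccl1, a ligand of CCR8, was lower in Clp1 KD at 431 and 204 reads (-1.46, -1.71 to -1.21).

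Of the ligands of CXCR3, which is carried by activated T cells, the interferon-inducible Cxcl10 and Cxcl11 were higher and Cxcl9 was not. Cxcl10 had the most reads of any single ligand entry, with 12297 in Ctr and 39529 in Clp1 KD (1.31, 1.28 to 1.34), and 406 and 991 RPKM. The Ccl21 entries sum to more in Clp1 KD, but that sum repeats identical counts, and Ccl21a alone had 33628 reads there. Cxcl11 had 819 and 2468 reads (1.21, 1.10 to 1.33), in a transcript that RefSeq lists as noncoding (NR_038116). Cxcl9, which lies next to both on chromosome 5, had 2371 and 3108 reads, with an interval around no difference (0.012, -0.066 to 0.090). Of 13 interferon-stimulated genes, 5 were higher (38.5%, against 19.1% of all genes), among them Ifit1, Ifit3, Oasl2 and Gbp3. None was lower (against 18.6% of all genes), and their median log2 ratio was 0.72. Gbp2 (-0.39) and Isg15 (-0.16) lay below 0 without being called. Irf1, a factor induced by interferon gamma, had 12011 and 15058 reads (-0.05). An antisense gene overlaps exons of Cxcl10 (Art3) and of Cxcl11 (the pseudogene Gm2673). No source used here says whether strand was used in counting, and their reads cannot be told apart. The same holds for Cxcl16 with Zmynd15, Ccl27a with Il11ra1 and Ccl27b with Il11ra2.

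Ccl20, the CCR6 ligand of epithelia, was 3.10-fold lower, with 6423 and 2698 reads (-1.63, -1.70 to -1.57), and 282 and 90.0 RPKM. Its match to kappa-B is printed above. The CCR10 ligands Ccl27a and Ccl27b, epithelial chemokines of skin, were neither, with 1787 and 1721 reads (-0.43) and 2053 and 2457 reads (-0.12). Cxcl13, which attracts B cells through CXCR5, was higher, with 491 and 1723 reads (1.43, 1.29 to 1.58). B cell markers were not higher with it. Of 4 that could be compared 3 were lower, none was at 0, and their sums were 1643 and 596.

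Both ligands with a membrane anchor stayed under 2-fold, on opposite sides of 0. Cxcl16, the CXCR6 ligand, had 2558 and 4874 reads (0.55, 0.48 to 0.62). Cx3cl1, or fractalkine, had 2863 and 2043 (-0.87, -0.95 to -0.78).

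The ligands of CXCR2, which recruit neutrophils, were split although all 6 lie in a single cluster on chromosome 5 (mm9, 91188325 to 91334935). In this cluster of 7 genes 4 were lower, 2 were higher and 1 was neither. Cxcl5 had 402 reads in Ctr and 31 in Clp1 KD (-4.08, -4.65 to -3.55). Cxcl15, or lungkine, had 107 and 0 reads, which is at least 46.4-fold lower when Clp1 KD is set to a floor of 3 reads. Cxcl3 had 912 and 267 reads (-2.15, -2.35 to -1.95). The closely related Cxcl2, at the other end of the cluster, was higher, with 1660 and 4388 reads (1.02, 0.94 to 1.11), and Cxcl1 had 4862 and 7806 (0.30, 0.25 to 0.36). Thus the 3 neighbours with the same kappa-B letters in the windows above had ratios on both sides of 0. Cxcl2 stands just inside the limit for higher genes.

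Of the platelet chemokines of the same cluster, Ppbp, or pro-platelet basic protein, was lower and Pf4, platelet factor 4, was higher. Ppbp had 231 and 125 reads (-1.26, -1.59 to -0.94), and Pf4 had 164 and 439 (1.04, 0.78 to 1.31). Both are stored in platelets, and their ratios did not move together. Of the 9 platelet markers 4 could be compared, of which 3 were lower and none higher. Their sums were 666 and 246, Gp6 was at 0 in both libraries, Gp1ba in Ctr and Treml1 in Clp1 KD. Of 8 neutrophil markers 6 were lower, with sums of 17994 and 7425 and Elane, neutrophil elastase, at 0 in Clp1 KD. The part of platelets and neutrophils in these ligands was not tested.

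Ligands grouped here under CCR2, the receptor of inflammatory monocytes, were low to moderate and mostly under 2-fold. Ccl2 had 1167 and 938 reads (-0.69), Ccl7 535 and 516 (-0.43), and Ccl8 685 and 495 (-0.85). Ccl12, another monocyte attractant, had 0 reads in Ctr and 50 in Clp1 KD, at least 12.8-fold higher when Ctr is set to the floor of 3 reads, and it stood exactly at the limit of 50 reads. These genes and Ccl11 are neighbours on chromosome 11. Ccl11, or eotaxin, which acts through CCR3 on eosinophils, was higher, with 1805 and 5454 reads (1.22, 1.14 to 1.29). Ccr3 itself had 2 and 116 reads.

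A second group on chromosome 11 (mm9, 83339280 to 83478185) holds further inflammatory CC ligands, and none of its 5 genes was higher. Ccl6, a ligand made by myeloid cells, was lower, with 3579 and 1863 reads (-1.32, -1.40 to -1.24). Ccl9, its neighbour and close relative, had 4226 and 3517 reads (-0.64), and Ccl5, or RANTES, had 3726 and 3384 (-0.52). Ccl3 and Ccl4, the macrophage inflammatory proteins, were alike in ratio, with 271 and 188 reads (-0.91) and 618 and 421 reads (-0.93). Of the other CXC ligands, Cxcl14 had 385 and 461 reads, with an interval that held no difference (-0.12, -0.32 to 0.080), and Cxcl17, a mucosal chemokine, had 78 and 40 (-1.34, -1.93 to -0.77).

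**Figure D3:**
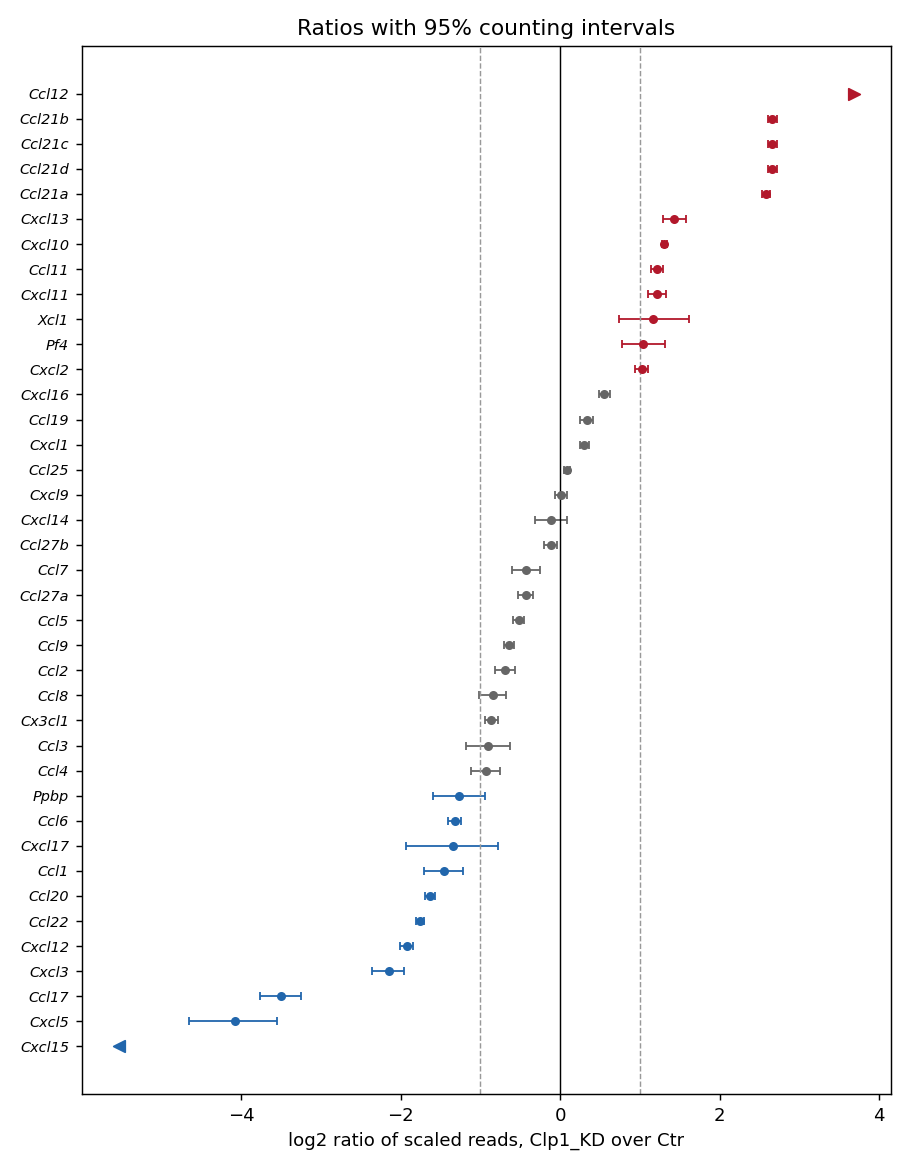
Log2 ratio of scaled reads, Clp1 KD over Ctr, of the 39 ligand genes in order of their value, with exact 95% intervals that cover counting error. Triangles are bounds for the genes with 0 reads in 1 library, dashed lines mark 2-fold, and red and blue mark the 12 higher and 11 lower genes.

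The study's list of Aire-sensitive genes, which was selected on other libraries, covers only genes with an annotated proximal poly(A) site. A ligand without such a site could not be on it. It holds 6 of the ligand genes, namely Ccl2, Ccl6, Ccl9, Ccl24, Cxcl15 and Ppbp. Of the 5 that could be compared, 3 were lower in Clp1 KD (Ccl6, Cxcl15 and Ppbp), 2 were neither (Ccl2 and Ccl9) and none was higher. Of all genes, with or without such a site, 18.6% were lower and 19.1% higher.

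Most of the receptors were lower. Of 23 genes for signalling and atypical chemokine receptors 21 could be compared, and of these 14 were lower (66.7%, against 18.6% of all genes) and 3 higher (14.3%, against 19.1%), with a median log2 ratio of -1.37. Most signalling receptors are carried by blood cells, which the sort on CD45 was meant to leave out. Ccr7, the receptor of Ccl19 and Ccl21, had the most reads, 7114 in Ctr and 3583 in Clp1 KD (-1.37, -1.43 to -1.31), and so was lower where the Ccl21 signal was higher. Ccr9, the receptor of Ccl25, was lower as well, with 1540 and 870 reads (-1.20, -1.32 to -1.08). Ccr4 was higher, with 274 and 851 reads (1.26, 1.06 to 1.46), against the direction of its ligands Ccl17 and Ccl22. Receptor and ligand were thus called in opposite directions for Ccr7 with the Ccl21 entries and for Ccr4 with both its ligands. The same was true of Cxcr3, which was lower, with Cxcl10 and Cxcl11, while Cxcl9 was not called. Ccr2, also lower, was opposite only to Ccl12, which had 0 and 50 reads. Ccl2 (-0.69), Ccl7 (-0.43) and Ccl8 (-0.85) lay below 0 like Ccr2, without being called. Receptor and ligand were called in the same direction for Ccr6 and Ccl20, Ccr8 and Ccl1, and Cxcr4 and Cxcl12, which were lower. Xcr1 and Xcl1, and Ccr3 and Ccl11, were both called higher.

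Several receptors of T cells and myeloid cells had no or almost no reads in Clp1 KD. Cxcr3 had 98 and 0 (at least 42.5-fold lower) and Ccr8 had 91 and 0 (at least 39.4-fold lower). Cx3cr1, the receptor of Cx3cl1, had 276 reads in Ctr and 1 in Clp1 KD. Ccr2 (418 and 101 reads), Ccr6 (550 and 332), Cxcr4 (243 and 121) and Cxcr6 (228 and 38) were also lower, with log2 ratios from -2.96 to -1.11. Of thymocyte markers 7 of 10 were lower, with sums of 14999 and 4322 and none at 0, and their part in the receptors was not tested. Among the atypical receptors 4 of 5 were lower. Ackr1, the interceptor of venular endothelium and red cells, had 3016 and 0 reads (at least 1307-fold lower). Ackr3, which removes CXCL12, had 583 and 157 (-2.27), Ackr4, which removes CCL19, CCL21 and CCL25, had 474 and 105 (-2.55), and Ccrl2 had 1186 and 721 (-1.10).

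The study's measure of 3'UTR length is the d3'UTR ratio, the read density past the most proximal annotated poly(A) site over that of the upstream part of the last exon. A higher ratio means a larger share of the long form. It could be computed for 8 ligand transcripts, of which 7 had reads in the distal part. Their median log2 ratio was 0.28, or 0.36 with Cxcl12, whose distal stretch of 54 bases had no reads in either library, beside 0.0035 over 5598 genes. Ccl6 had the largest rise among the 7, from 0.108 in Ctr to 0.217 in Clp1 KD (log2 ratio 1.0, 0.73 to 1.27), and its ratio reached the 2-fold limit that 18.9% of all genes passed upward and 17.4% downward. So Ccl6 was lower in amount and had relatively more of its distal part. Ccl9 went from 0.0448 to 0.0610 (0.44, 0.21 to 0.68), Cxcl16 from 0.249 to 0.338 (0.44, 0.21 to 0.67), and Cx3cl1 from 0.677 to 0.823 (0.28, 0.10 to 0.46). Cxcl9 went the other way, from 0.276 to 0.143 (-0.94, -1.15 to -0.74), although its whole-transcript level did not differ. The intervals of Ccl2 (0.858 and 0.727) and Ppbp (1.41 and 0.954) held no difference.

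**Figure D4:**
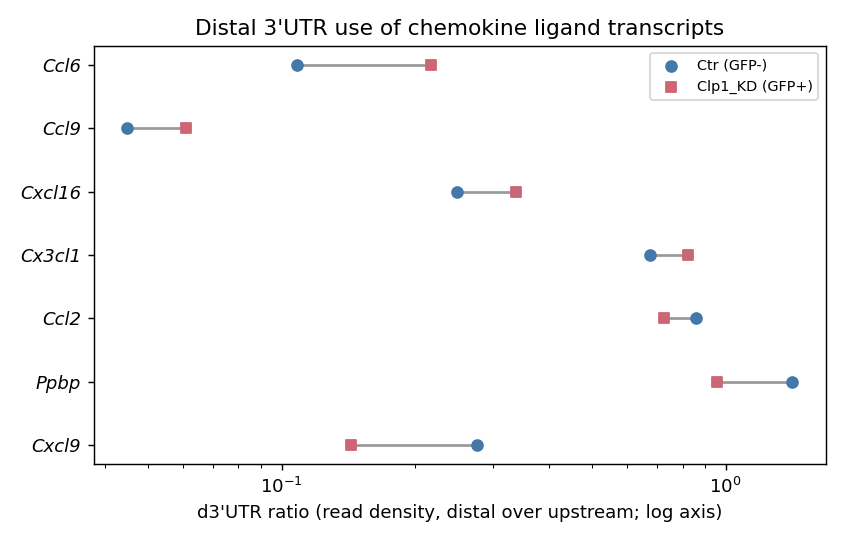
d3'UTR ratios (log axis) of the 7 ligand transcripts with distal reads, with circles for Ctr and squares for Clp1 KD. Ccl6 has the widest gap to the right, from 0.108 to 0.217, and Cxcl9 the widest to the left, from 0.276 to 0.143.

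The upstream part of the last exon, with the last coding bases, was also set against the earlier coding exons, to see whether the parts of a transcript told the same ratio. This comparison was chosen after the values were seen. Of 29 ligand transcripts with at least 50 reads in each part, 3 had parts that differed by at least 2-fold, where 16.2% of 11221 genes did. In Cxcl3 the earlier exons had 191 reads in Ctr and 131 in Clp1 KD (-0.92), whereas the last exon had 636 and 83 (-3.32). The difference of the log2 ratios was -2.39 (-2.87 to -1.92), so the lower level of Cxcl3 lay mainly in its last exon. In Cxcl14 the earlier exons had 43 and 103 reads (0.88) and the last exon 298 and 251 (-0.63), a difference of -1.50 (-2.11 to -0.92), and the parts lay on opposite sides of 0. In Ppbp the earlier exons had 59 and 18 reads and the last exon 49 and 33, with a difference of 1.12 and a wide interval (0.076 to 2.23). Under 2-fold, the differences of Cxcl12 (0.80, 0.35 to 1.30), Cxcl2 (0.51, 0.33 to 0.70) and Cxcl9 (0.25, 0.037 to 0.47) also had intervals that left out 0. The earlier exons of Cxcl2 alone had a log2 ratio of 0.75, under the limit that its whole transcript passed. For the other 23 ligands, Ccl17, Ccl20, Ccl22, Ccl11, Cxcl10 and Cxcl13 among them, the interval of the difference held 0.

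**Figure D5:**
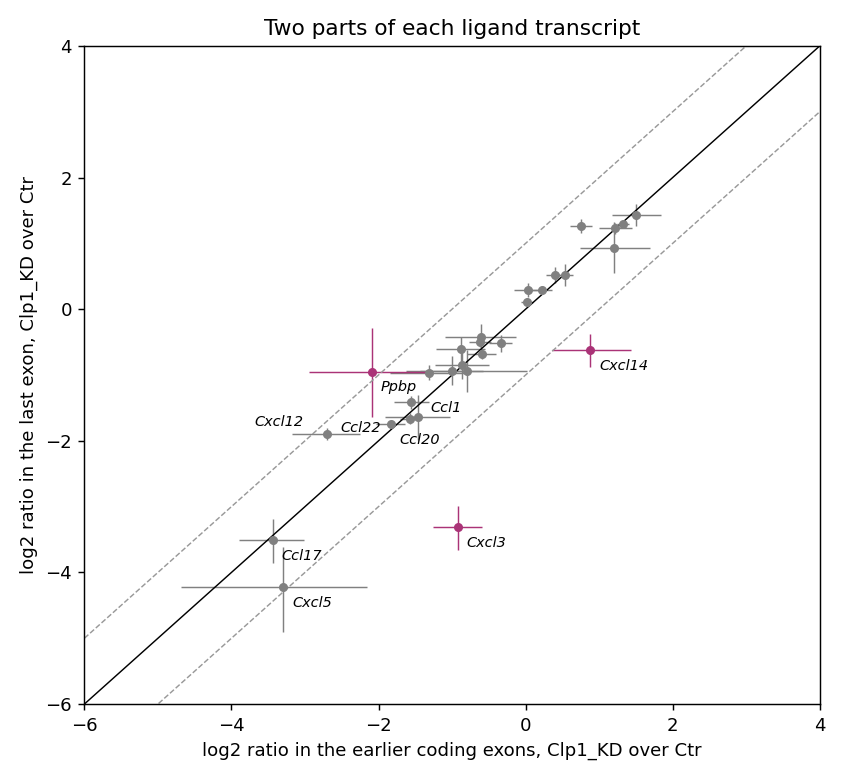
Log2 ratio in the last exon against that in the earlier coding exons for 29 ligand transcripts, Clp1 KD over Ctr, with exact 95% intervals that cover counting error. The solid line marks equal ratios and dashed lines a 2-fold difference, and Cxcl3, Cxcl14 and Ppbp (coloured) lie outside.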

How the data were processed

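mTEChi of 1 mouse were sorted by GFP into Clp1 KD and Ctr, and RNA was amplified with the Smarter Ultra Low Input kit and Nextera and sequenced as single-end reads of 50 bp. The submitters' processing notes name Bowtie 1.0.0, the mm9 genome, bedtools and DESeq. The deposited values are counts of whole reads lying within exons of 30794 RefSeq transcripts, without normalization, so reads across exon junctions are lost. A second deposited count table splits 27567 transcripts into parts, with the length of each. The authors' comparison table (scaled values, folds and p-values) was not used here. Neither strand use nor duplicate removal for these libraries is given in the sources used here.

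Symbols came from a RefSeq table of GRCm38.p6 (30216 transcripts matched) and positions from GENCODE vM1 on NCBIM37 (mm9). Scaling used median-of-ratios size factors (0.877 for Ctr, 1.14 for Clp1 KD) in Python 3.11.15 with scipy 1.17.1, and 0.5 was added for medians. With 1 library per group no test was run. A gene with 0 reads in 1 library was given a bound against 3 reads there. For d3'UTR ratios a transcript needed 10 reads in its last exon per library, with 0.5 added to the reads of each part. The call rule was tested on simulated data. Members, receptor and marker lists were chosen with earlier results of these data known. Every ligand with at least 50 reads is named, along with the receptors called or with the most reads. Cd68 was not matched. Some single genes of these lists are not reported here. Alternatives were TMM scaling (edgeR 4.0.16), total reads, other read and fold limits, every transcript entry and other pseudocounts.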

Additional observations from a re-analysis of the deposited data

How the results depend on the processing

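No paired analysis was possible because each group has 1 library, and no replicate could be left out. TMM scaling, scaling by total reads and minimums of 1, 10 or 200 reads moved no count of ligands, receptors or all genes by over 1.5 times. The median log2 ratio of the ligands went from -0.43 to -0.27 at minimums of 1 and of 200 reads. It lay between -0.45 and -0.43 in the other 3 settings. No interval of the median was computed. All these values lay within the counting interval of Ccl7, the ligand at the median (-0.61 to -0.25). The fold limit moved some counts. At 1.5-fold 17 of 39 ligands and 27.97% of all genes were lower, and 14 receptors were lower. The ligands higher at 1.5-fold were 12 of 39 (30.8%), near the 28.25% of all genes that were higher at that limit. These 12 include the 4 Ccl21 copies that share reads. At 4-fold 5 of 39 ligands were higher, namely the 4 Ccl21 copies and Ccl12, which had 50 reads in all. At that limit 4 ligands and 9 receptors were lower, and 8.67% of all genes were higher and 8.003% lower. With every transcript entry, which repeats Ccl21 entries, 24 entries were higher, the median was -0.096 and the ratio of read shares 2.04. That ratio was 1.39 with identical entries counted once and 1.55 without Cxcl10, the single entry with the most reads. In settings chosen after seeing the data it was 0.999 without the Ccl21 copies and 0.755 without Cxcl10 as well. The median of the d3'UTR ratios lay between 0.28 and 0.36. Of the single ligands, Cxcl12 alone left its interval, at -2.65 with its transcripts summed. Xcl1, Ccl12, Cxcl17 and Cxcl15 rest on few reads, which limits their precision.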
